A study of Homo sapiens with 18 samples.

Results

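STC1 and STC2, the human genes for the stanniocalcins, were followed across CAMA-1 and ZR-75-1 cells treated with a CDK4/6 inhibitor. They were taken by symbol from a table of 60656 gene rows, of which 25113 held a count, so the pair makes up 2 of those rows. STC1 was chosen by its measured change with palbociclib against DMSO, which went in different directions in the 2 lines. That choice used its DMSO and palbociclib values, and each of its comparisons holds either or both. All values of STC1 are therefore given as a description, without a test. STC2 did not enter that choice through its response and was tested. Both genes and the gene lists used below were, however, chosen with earlier results of these data known.

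CAMA-1 and ZR-75-1 are established oestrogen receptor-positive human breast cancer cell lines, and all libraries came from the parental, wild-type cells. Cells received abemaciclib at 500 nM, palbociclib at 500 nM or an equal volume of the solvent DMSO for 5 days. Both drugs inhibit CDK4 and CDK6, the kinases that phosphorylate the retinoblastoma protein. Each of the 6 groups of line and treatment had 3 libraries, described by the study as independent biological replicates, and RNA was counted from the 3′ ends of transcripts.

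Stanniocalcins are secreted glycoprotein hormones first known from bony fish, where they lower the uptake of calcium. In mammals they act mainly close to the cells that secrete them, and both bind and inhibit the protease PAPP-A. PAPP-A cuts the binding protein IGFBP4 and so frees insulin-like growth factors for their receptor. STC2 is known in breast cancer cells as a gene induced by oestrogen, and in many cells as a target of the stress factor ATF4, whereas both genes can be induced by low oxygen.

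STC1 (ENSG00000159167.12) lies on chromosome 8 of GRCh38, from 23841929 to 23854806 on the minus strand. It has 4 exons, a coding length of 741 bases and a 3′ untranslated region of 2844 bases. No annotated gene overlaps it.

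STC2 (ENSG00000113739.10 in the count table) lies on chromosome 5, from 173314723 to 173328447, also on the minus strand. It has 4 exons, a coding length of 906 bases and a 3′ untranslated region of 3127 bases. No annotated gene overlaps it either.

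RefSeq's promoter table held 1 of the 2 genes, STC2. The upstream sequence of STC2 is shown as a stretch near the member whose responses were tested. It lies at chr5:173328465-173328664 of GRCh38.p14, read 5′ to 3′ on the minus strand, with a CCAAT box in reverse orientation in capitals.
STC2 upstream: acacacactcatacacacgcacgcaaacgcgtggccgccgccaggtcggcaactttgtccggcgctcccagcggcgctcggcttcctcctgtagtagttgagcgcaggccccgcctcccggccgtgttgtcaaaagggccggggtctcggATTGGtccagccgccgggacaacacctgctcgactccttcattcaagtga
In these 200 bases, 64.5% were G or C, against a median of 57.5% over all promoters of the table. CCAAT, searched on both strands, was found 1 time, 100 bases before the RefSeq start, which lies inside the annotated interval given above rather than at its end, and 27.4% of the 35116 promoters held it in the same window. The oestrogen response half-site GGTCA, the hypoxia core ACGTG, the C/EBP-ATF letters TGATGNAAN and the TATA box TATAAA were not found on either strand, and 27.1%, 14.4%, 2.49% and 7.63% of promoters held them. These matches describe the letters of the window only. The bases directly before the RefSeq start lay outside the window and were not searched.

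Libraries held 2308442 to 4146549 counts, so 1 count stood for 0.241 to 0.433 CPM, the count scaled to the library total. All 8 luminal markers were counted in each library (ESR1, the oestrogen receptor, at 120 counts or more), while the basal keratin KRT5, the fibroblast collagen COL1A2 and the endothelial cadherin CDH5 were at 0 throughout. The other 7 markers of basal, mesenchymal, immune and endothelial cells were low, with COL1A1 highest at 26 to 108 counts, and the summed level of all 10 was 17.6 to 36.6 CPM. ACTA2, a smooth muscle actin also made by myoepithelial cells and fibroblasts, moved with treatment: it rose in CAMA-1 with abemaciclib and palbociclib (log2 fold change 2.12 and 1.48) and fell in ZR-75-1 with abemaciclib (−2.42), all at 34 counts or fewer. With palbociclib in ZR-75-1 it was at −1.05 (adjusted p = 0.057, edgeR), and its part in the values of STC1 and STC2 was not tested. Mitochondrial genes took 15.7% ± 0.87 of the counts of CAMA-1 with DMSO, 24.8% ± 1.37 after abemaciclib and 23.6% ± 1.15 after palbociclib (SD, n = 3). The shares for ZR-75-1 were 20.2% ± 2.68, 19.5% ± 1.01 and 19.0% ± 0.70. The share therefore moved with treatment in CAMA-1, and the values of both genes without mitochondrial genes are given beside the results there.

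In CAMA-1, STC1 was lower with abemaciclib than with DMSO and lower still with palbociclib, while STC2 rose with both drugs. In ZR-75-1, STC1 was higher with either drug than with DMSO, while STC2 fell with palbociclib. Values are CPM normalised by TMM, a scaling of library totals, and fold changes are on the log2 scale. Fewer cells making a transcript and less of it per cell cannot be told apart in these bulk libraries.

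STC1 in CAMA-1 was counted at 53.5, 51.7 and 56.8 CPM in the DMSO libraries (54.0 ± 2.57, SD, n = 3). With abemaciclib it was at 19.0, 22.2 and 13.7 CPM (18.3 ± 4.31), and with palbociclib at 5.04, 5.11 and 8.48 CPM (6.21 ± 1.97). The 3 groups did not overlap: each DMSO library lay above each abemaciclib library, which in turn lay above each palbociclib library. The palbociclib values rest on 18 to 25 counts per library and are the least precise of the set. The abemaciclib level was 3.06-fold lower than DMSO (log2 fold change −1.61, SE 0.17, no test). In this comparison 40.3% of the 11053 genes tested were called changed by edgeR (quasi-likelihood test, adjusted p under 0.05), 20.1% of all genes were called lower, and 48.1% did not overlap between the groups. With palbociclib, STC1 was 9.10-fold lower than DMSO (log2 fold change −3.19, SE 0.20, no test), a comparison in which 46.3% of genes did not overlap. Abemaciclib stood 2.98-fold above palbociclib (1.57, SE 0.23, no test), where 17.8% of genes did not overlap. Without mitochondrial genes, the log2 fold changes were −1.61 and −3.18.

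STC1 in ZR-75-1 was at 28.7, 37.6 and 27.9 CPM with DMSO (31.4 ± 5.38, n = 3). It was at 56.2, 56.8 and 54.3 CPM with abemaciclib (55.7 ± 1.32) and at 45.0, 44.3 and 40.2 CPM with palbociclib (43.2 ± 2.58). Again no groups overlapped, but in this line both drugs lay above DMSO and abemaciclib was the higher of them. STC1 was 1.76-fold higher with abemaciclib (log2 fold change 0.82, SE 0.14, no test), in a comparison in which 36.2% of genes were called, 17.9% were called higher and 45.7% did not overlap. The palbociclib level was 1.36-fold that of DMSO (0.45, SE 0.14, no test), where 39.1% of genes did not overlap. Abemaciclib exceeded palbociclib by 0.37 on the log2 scale (SE 0.13, no test), where 27.7% of genes did not overlap. The distances between libraries of a group were wider for DMSO, where replicate 2 stood above its partners, than for either drug.

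**Figure D1:**
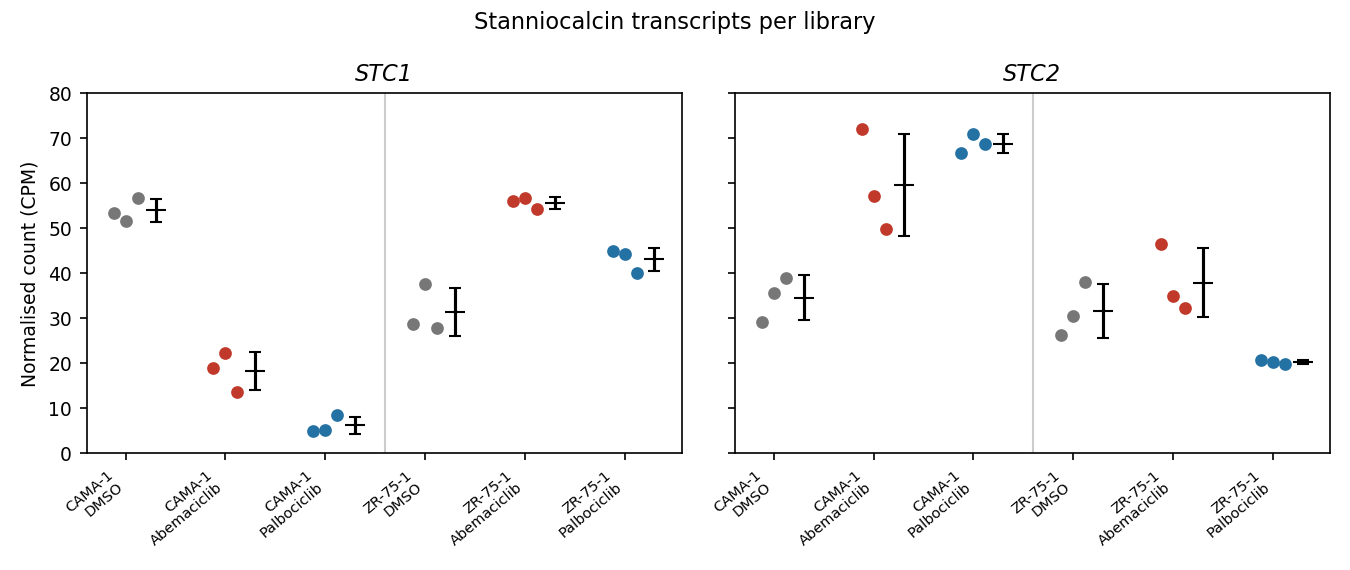
Normalised counts (CPM) of STC1 (left) and STC2 (right) in the 18 libraries, by line and treatment; points are libraries and bars are mean ± SD of 3. STC1 runs from 54.0 CPM with DMSO down to 6.21 with palbociclib in CAMA-1 and from 31.4 up to 55.7 with abemaciclib in ZR-75-1, whereas STC2 is highest in drug-treated CAMA-1 and lowest in ZR-75-1 with palbociclib (20.3).

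STC2 in CAMA-1 was at 29.3, 35.7 and 38.92 CPM with DMSO (34.6 ± 4.91, n = 3). With abemaciclib it was at 72.0, 57.3 and 49.8 CPM (59.7 ± 11.3), and with palbociclib at 66.7, 70.9 and 68.8 CPM (68.8 ± 2.12). Both drugs lay above DMSO in all libraries, and the drugs overlapped each other, since abemaciclib spread over a wide range. STC2 rose 1.68-fold with abemaciclib (log2 fold change 0.75, SE 0.14, adjusted p = 1.4e-05, edgeR). In this comparison 40.3% of genes were called, 20.3% were called higher and 48.1% did not overlap. STC2 rose 1.93-fold with palbociclib (0.95, SE 0.13, adjusted p = 1.3e-07, edgeR), where 37.1% of genes were called, 18.4% were called higher and 46.3% did not overlap. A difference between the drugs did not pass the test (abemaciclib minus palbociclib −0.19, 95% interval −0.45 to 0.06, adjusted p = 0.56, edgeR), in a comparison that called 2.33% of genes. Without mitochondrial genes the rises were 0.76 and 0.95 on the log2 scale.

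STC2 in ZR-75-1 was at 26.4, 30.5 and 38.2 CPM with DMSO (31.7 ± 5.98, n = 3). It was at 46.6, 34.96 and 32.2 CPM with abemaciclib (37.9 ± 7.63) and at 20.7, 20.3 and 20.0 CPM with palbociclib (20.3 ± 0.37). Palbociclib lay below all other libraries of the line, whereas abemaciclib and DMSO overlapped. STC2 fell 1.56-fold with palbociclib (log2 fold change −0.64, SE 0.18, adjusted p = 0.0039, edgeR), where 27.9% of genes were called, 13.4% were called lower and 39.1% did not overlap. This call rested on DMSO replicate 3, the highest of its group: without it the log2 fold change was −0.50 and the adjusted p 0.054 (edgeR). The abemaciclib difference did not pass the test (0.26, SE 0.17, 95% interval −0.07 to 0.59, adjusted p = 0.23, edgeR). It was 0.08 without abemaciclib replicate 1 and 0.41 without DMSO replicate 3, and passed with neither left out (adjusted p = 0.79 and 0.083, edgeR). STC2 was 1.87-fold higher with abemaciclib than with palbociclib at the same dose and time (0.90, SE 0.17, adjusted p = 1.1e-04, edgeR), a comparison in which 13.2% of genes were called, 5.23% were called higher and 27.7% did not overlap.

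The summed level of the 8 luminal markers was 4836 to 5084 CPM in CAMA-1 with DMSO, 6456 to 6542 with abemaciclib and 6739 to 6819.8 with palbociclib. In ZR-75-1 it was 5590.3 to 5809, 6412 to 6656 and 5042 to 5401 CPM in the same order. Like STC2, the sum was above DMSO with both drugs in CAMA-1 and below DMSO with palbociclib in ZR-75-1. With abemaciclib in ZR-75-1 the sum was also above DMSO, whereas the STC2 difference did not pass the test. Single markers departed from the sum. In CAMA-1, 4 of the 8 rose with each drug, while GATA3 fell with both (log2 fold change −0.15 and −0.31) and SPDEF with palbociclib (−0.26). In ZR-75-1 with abemaciclib, 4 rose and 2 fell, namely KRT18 (−0.38) and SPDEF (−0.34). Of the 8, 3 fell with palbociclib in ZR-75-1 (GATA3, KRT8 and KRT18), 4 were not called and ESR1 rose (log2 fold change 0.77, adjusted p = 1.8e-11, edgeR). The part of the markers in the STC2 values was not tested.

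**Figure D2:**
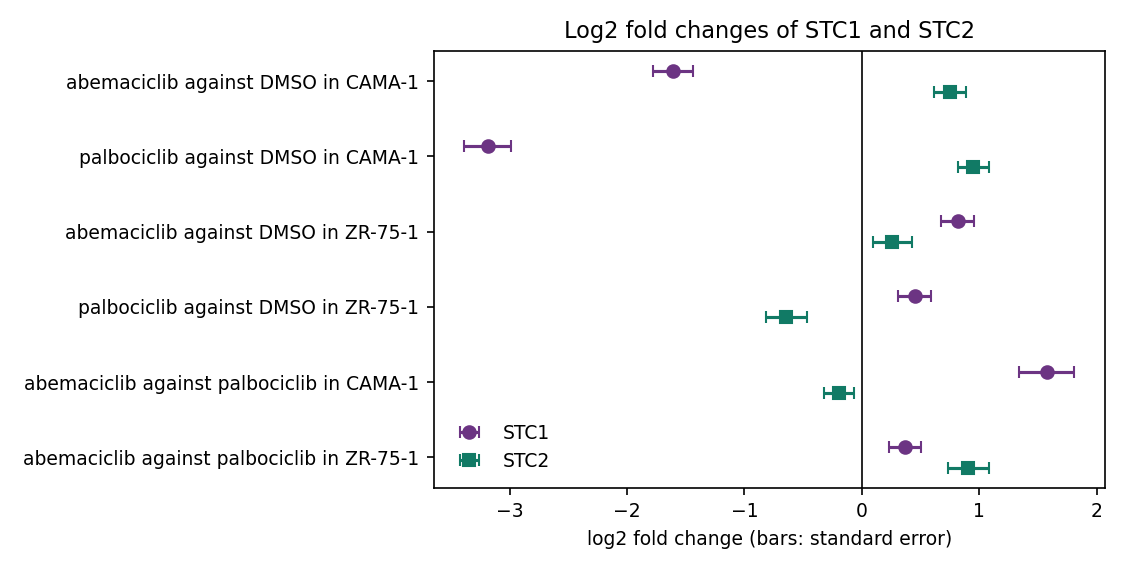
Log2 fold changes ± SE of STC1 and STC2 in the 6 comparisons within a line, from edgeR. STC1 is below 0 for both drugs against DMSO for CAMA-1 (−1.61 and −3.19), and above 0 for ZR-75-1 (0.82 and 0.45), and STC2 with palbociclib is above 0 in CAMA-1 (0.95) and below 0 in ZR-75-1 (−0.64).

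The difference in response between the lines was taken as an interaction (response of ZR-75-1 less response of CAMA-1, log2), in a joint fit of 18 libraries and 11987 genes. For STC1 with abemaciclib it was 2.40 (SE 0.22, no test), in a contrast where 18.2% of genes were called and 8.19% were called higher in ZR-75-1. For STC1 with palbociclib it was 3.61 (SE 0.25), the contrast that chose the gene. For STC2 the differences had the opposite sign. With palbociclib it was −1.62 (SE 0.22, adjusted p = 4.2e-08, edgeR), where 20.3% of genes were called and 10.3% were called lower. With abemaciclib it was −0.52 (SE 0.21, 95% interval −0.94 to −0.09) and missed the threshold (adjusted p = 0.087, edgeR). Leaving out DMSO replicate 1 or abemaciclib replicate 1 of ZR-75-1 gave −0.63 (adjusted p = 0.046, edgeR) and −0.64 (adjusted p = 0.040).

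With DMSO, STC1 was lower in ZR-75-1 than in CAMA-1 by 0.78 on the log2 scale (SE 0.15, no test), with no overlap between the lines. STC2 was at similar values in both lines, with overlapping libraries and a difference of −0.14 that did not pass the test (SE 0.16, 95% interval −0.45 to 0.17, adjusted p = 0.45, edgeR). Of all genes, 61.3% were called between the untreated lines and 64.4% did not overlap.

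Ordered by mean, STC1 ran from ZR-75-1 with abemaciclib through CAMA-1 with DMSO, ZR-75-1 with palbociclib, ZR-75-1 with DMSO and CAMA-1 with abemaciclib to CAMA-1 with palbociclib. Only the first 2 groups of this order overlapped. STC2 ran from CAMA-1 with palbociclib through CAMA-1 with abemaciclib, ZR-75-1 with abemaciclib, CAMA-1 with DMSO and ZR-75-1 with DMSO to ZR-75-1 with palbociclib. Here the 2 drug groups of CAMA-1 overlapped, as did the next 3 groups from one to the next, while ZR-75-1 with palbociclib stood below the rest.

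The protease PAPP-A and the growth factors of its pathway were hardly counted in these lines. PAPPA was at 0 counts in all CAMA-1 libraries and at 2 or fewer in ZR-75-1, and its relative PAPPA2 was at 3 or fewer. PRG2, whose proform inhibits PAPP-A, and IGF2 were at 0 in all 18 libraries, and IGF1 was at 3 counts or fewer. IGFBP6 was at 2 or fewer. None of these was tested. Levels under 3 counts, or 0.723 to 1.30 CPM by library, were not detectable at this depth.

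Of the binding proteins, IGFBP2, IGFBP4 and IGFBP5 were counted deeply, at 196 counts or more in each library. IGFBP5, a main binding protein of breast cells and like IGFBP4 a substrate of PAPP-A's family, rose in both lines with both drugs. In CAMA-1 it went from 3884 ± 377 CPM to 4972 ± 138 with abemaciclib and 6258 ± 167 with palbociclib (log2 fold change 0.32 and 0.66, adjusted p = 1.0e-05 and 1.1e-12, edgeR). In ZR-75-1 it went from 1339 ± 50.3 to 3680 ± 131 and 3321 ± 143 CPM (1.45 and 1.31, adjusted p = 3.2e-26 and 7.6e-24). IGFBP4, the substrate through which PAPP-A frees IGF, rose with palbociclib by 0.46 in CAMA-1 (adjusted p = 1.5e-04, edgeR) and by 0.58 in ZR-75-1 (2.4e-09). With abemaciclib it rose by 0.18 in ZR-75-1 (adjusted p = 0.047, edgeR) and was at −0.02 in CAMA-1 (0.88). IGFBP2 fell by 0.23 with palbociclib in CAMA-1 (adjusted p = 0.024, edgeR) and did not pass elsewhere. IGFBP3 was at 1 count or fewer in CAMA-1 with DMSO and at 10 to 19 counts with abemaciclib, at least 5.02-fold higher taking 3 counts per library as the floor.

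Of the receptors and their adaptors, IGF1R, the receptor of insulin-like growth factor, rose in CAMA-1 by 1.18 with abemaciclib and 1.26 with palbociclib (adjusted p = 0.0023 and 0.001, edgeR). In ZR-75-1 it was at −0.10 and 0.18 and did not pass, and the interaction was −1.31 and −1.11 (adjusted p = 0.0039 and 0.012, edgeR). The insulin receptor INSR rose by 0.50 and 0.69 in CAMA-1 (adjusted p = 0.0038 and 6.8e-05, edgeR) and did not pass in ZR-75-1 (−0.24 and 0.08), with an interaction of −0.77 and −0.64 (adjusted p = 0.022 and 0.047). IGF2R, which clears IGF2, rose with abemaciclib by 0.99 in CAMA-1 and 0.82 in ZR-75-1, and with palbociclib by 0.67 in CAMA-1 (adjusted p = 7.6e-07, 1.5e-09 and 4.8e-04, edgeR). The adaptor IRS2 fell with both drugs in both lines, from 13.4 ± 1.97 to 3.95 ± 1.34 and 6.39 ± 2.01 CPM in CAMA-1 and from 33.2 ± 7.93 to 6.65 ± 0.90 and 13.7 ± 4.70 CPM in ZR-75-1. The highest of its adjusted p values was 0.0032 (edgeR). IRS1 fell with abemaciclib in CAMA-1 (−0.98, adjusted p = 0.0069, edgeR) and did not pass in the other comparisons.

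Counted over the 15 genes listed for this axis, 9 could be tested in CAMA-1. With abemaciclib 5 rose and 2 fell, and with palbociclib 6 rose and 2 fell, or 77.8% and 88.9% called against 40.3% and 37.1% of all genes. In ZR-75-1, 8 could be tested; 3 rose and 1 fell with abemaciclib, and 2 rose and 1 fell with palbociclib (50% and 37.5%, against 36.2% and 27.9%).

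**Figure D3:**
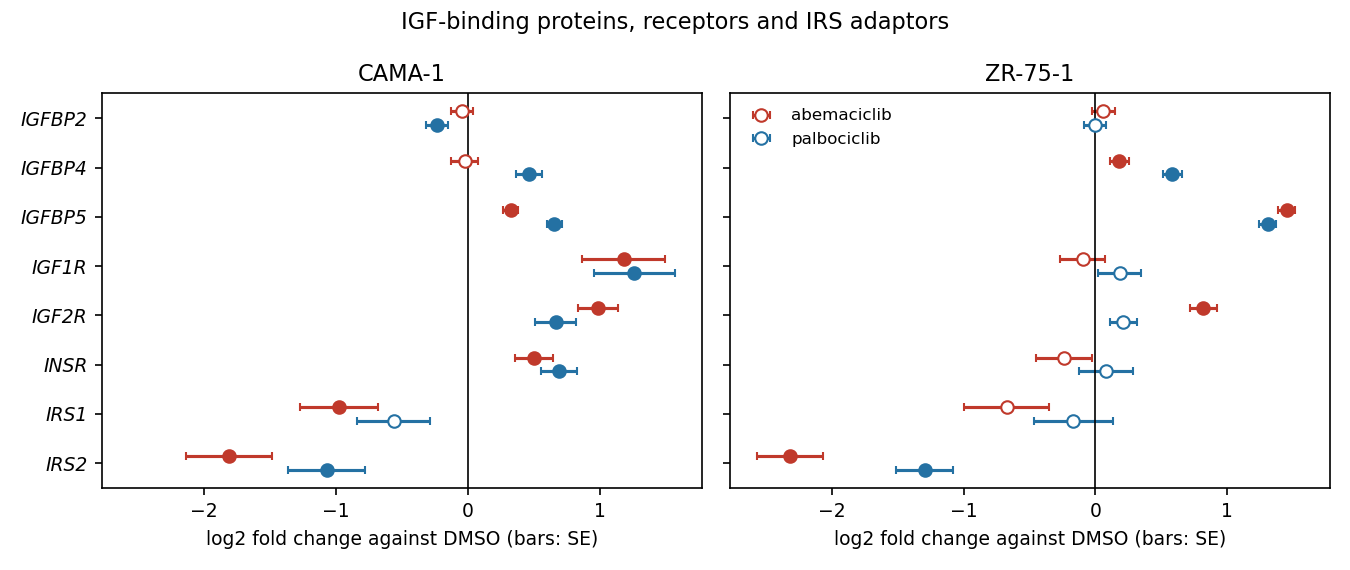
Log2 fold changes against DMSO ± SE of 8 genes of the PAPP-A and IGF axis with abemaciclib and palbociclib, in CAMA-1 (left) and ZR-75-1 (right); filled markers passed an adjusted p under 0.05. IGFBP5 is above 0 and IRS2 below 0 in all 4 comparisons, and IGF1R passed in CAMA-1 (1.18 and 1.26) and not in ZR-75-1 (−0.10 and 0.18).

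Of 26 genes listed for ATF4 and the unfolded protein response, to which STC2 is known to belong as a target, 22 were tested in CAMA-1 and 24 in ZR-75-1. In ZR-75-1, 16 fell and 1 rose with abemaciclib (median log2 fold change −1.21), and 16 fell and 2 rose with palbociclib (−0.83). In CAMA-1, 9 fell and 6 rose with abemaciclib (−0.14), and 9 fell and 7 rose with palbociclib (0.02). Of all genes, 20.1%, 18.7%, 18.3% and 13.4% were called lower in CAMA-1 (abemaciclib, then palbociclib) and in ZR-75-1. The median over all genes tested lay between −0.01 and 0.01 in these comparisons. In the difference between lines, 12 of the 24 genes were called lower in ZR-75-1 with abemaciclib and 12 with palbociclib (10% and 10.3% of all genes), and 2 and 3 were called higher.

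ATF4 itself, named here after its values were seen, fell in CAMA-1 from 318 ± 56.8 CPM to 198 ± 18.4 with abemaciclib and 214 ± 14.6 with palbociclib. In ZR-75-1 it fell from 335 ± 50.7 to 105 ± 9.27 and 122 ± 10.4 CPM. STC2 rose with both drugs in CAMA-1, where ATF4 fell, and fell together with ATF4 in ZR-75-1 with palbociclib. With abemaciclib in ZR-75-1, where ATF4 was lowest, STC2 did not pass the test (log2 fold change 0.26, adjusted p = 0.23, edgeR). The part of ATF4 in the STC2 values was not tested. The largest falls of the list were SLC7A11, the cystine transporter, and CHAC1, which degrades glutathione, in ZR-75-1 (−4.41 and −3.21 with abemaciclib, −3.25 and −3.25 with palbociclib). In CAMA-1, PHGDH, the first enzyme of serine synthesis, fell by 2.54 and 1.86, and SLC7A11 fell by 1.76 with palbociclib. SHMT2, of mitochondrial folate metabolism, fell by 0.97 with abemaciclib there. The largest rise was GDF15, a secreted stress cytokine, in CAMA-1: from 6.58 ± 2.25 CPM to 56.2 ± 6.50 with abemaciclib and 172 ± 3.86 with palbociclib (log2 3.01 and 4.62). PPP1R15A rose by 1.05 with abemaciclib and the factor ATF3 by 2.13 with palbociclib in CAMA-1. The chaperone HSPA5 rose by 0.64 and 0.75 in ZR-75-1 and its partner SDF2L1 by 0.52 with palbociclib.

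Among 18 genes known to be induced by oestrogen, 15 were tested in CAMA-1, of which 11 rose with each drug, and 2 fell with abemaciclib and 1 with palbociclib (median log2 fold change 0.75 and 0.81). In ZR-75-1, 17 were tested: 11 rose and 1 fell with abemaciclib (0.50), and 14 rose and 1 fell with palbociclib (0.67). STC2, not a member of this list, rose with both drugs in CAMA-1 and fell with palbociclib in ZR-75-1. Among list genes averaging 10 counts or more, the secreted TFF1 and TFF3 rose most in CAMA-1, TFF1 from 249 ± 9.34 to 1108 ± 63.98 CPM with abemaciclib and 919 ± 45.9 with palbociclib. PDZK1, at 3 counts or fewer in CAMA-1 with DMSO, was at least 3.53-fold higher there with abemaciclib and at least 5.40-fold with palbociclib, against a floor of 3 counts per library. The scaffold PDZK1 and the protease inhibitor SERPINA1 rose most in ZR-75-1 (3.31 and 2.32 with abemaciclib, 3.21 and 2.95 with palbociclib). The disulphide isomerase AGR2 fell by 1.54 with abemaciclib and OLFM1 by 0.88 with abemaciclib and 0.87 with palbociclib in CAMA-1, and the growth factor AREG fell in ZR-75-1 (−0.59 and −0.94). Beside these counts, 20.3%, 18.4%, 17.9% and 14.5% of all genes were called higher in the same order of comparisons.

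Genes whose log2 CPM most resembled each stanniocalcin over the 18 libraries were found by Pearson correlation among 10872 genes, as a description, since the libraries share 6 groups. For STC1 they were EPB41L2, a membrane skeleton protein (r = 0.946), FMC1 (0.924), ATP1B1, a subunit of the sodium pump (0.886), DANCR (0.872) and the helicase DHX9 (0.851). EPB41L2 averaged 29.2, 12.5 and 9.22 CPM in CAMA-1 with DMSO, abemaciclib and palbociclib, and 20.3, 31.8 and 29.8 in ZR-75-1. For STC2 they were the coregulator TRIM24 (0.921), the receptor ERBB3 (0.914), the AP-1 member JUNB (0.908), the phosphatase PTPRF (0.908) and the kinase GSK3B (0.907). JUNB averaged 81.9, 139.8 and 144 CPM in those CAMA-1 groups and, for ZR-75-1, 59.5, 70.5 and 39.3 CPM. These correlations carry no p, and the genes did not all keep the order of the groups. In ZR-75-1, where STC1 was higher with either drug, EPB41L2, ATP1B1 and DANCR were also higher with both. FMC1 averaged 23.0, 22.6 and 20.9 CPM there with DMSO, abemaciclib and palbociclib, and DHX9 115, 110 and 107 CPM.

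The coding genes on either side of the stanniocalcins were also examined. Of the 3 nearest protein-coding genes on each side of STC1, NKX2-6, ADAMDEC1 and ADAM7 were at 0 and ADAM28 was at 2 counts or fewer. The mitochondrial iron transporter SLC25A37 was the neighbour counted best, at 68 to 135 counts, and rose by 0.40 with abemaciclib in CAMA-1 (adjusted p = 0.042, edgeR), where STC1 was lower. Beside STC2, CREBRF, a regulator of an unfolded protein response factor, rose in CAMA-1 by 0.57 and 0.92 (adjusted p = 0.010 and 2.6e-05, edgeR), and BNIP1 fell by 0.59 and 0.60. CPEB4 rose by 0.42 with abemaciclib in CAMA-1 (adjusted p = 0.014, edgeR), and 0 of the 4 tested neighbours of STC2 were called against DMSO in ZR-75-1 with either drug. CPEB4 with abemaciclib in ZR-75-1 was at 0.46 and just missed the threshold (adjusted p = 0.052, edgeR). Of all genes, 40.3% and 37.1% were called in CAMA-1 with abemaciclib and palbociclib, and 36.2% and 27.9% in ZR-75-1.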

How the data were processed

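RNA of 18 libraries was sequenced from 3′ ends. Per the labels and the study's methods, the authors trimmed reads, aligned them with STAR 2.7.5b to hg38 and deposited whole-number read counts per gene from featureCounts 2.0.1. Strand setting, multi-mapping and molecular identifiers were not given in the sources used here, and the strand of the kit differs between labels and methods. Counts were used as deposited. Each line (9 libraries) was filtered by filterByExpr and fitted in edgeR 4.0.16 (R 4.3.3) with TMM and a quasi-likelihood test, with p adjusted by Benjamini-Hochberg over all genes tested (11053 in CAMA-1, 11017 in ZR-75-1). Line differences used a joint fit. DESeq2 1.42.0 was an alternative. Tests of STC1 with abemaciclib had been planned, but its p-values are not reported, as its DMSO values took part in its choice. Both genes passed the filter in each comparison. The scripts were tested on simulated data. Rows without a symbol held 0.0704% of counts and stayed in the totals. All 18 columns were matched by title. Replicate pairs differed beyond sampling noise (chi-square per degree of freedom 1.83 to 5.18). Coordinates are from GENCODE on GRCh38, a later release than the authors counted on.

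STC1, STC2 and the gene lists were chosen with earlier results of these data known. Named genes are the pair, all tested genes of the PAPP-A axis, the 2 largest rises and falls called in each list (mean of at least 10 counts), the 5 genes most alike and the 3 nearest coding neighbours a side. Intervals and floors cover counting error only where they rest on counts. A neighbouring gene is not reported here.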

Additional observations from a re-analysis of the deposited data

Results flagged for a closer look

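STC1 with abemaciclib lay on opposite sides of DMSO in the 2 lines, at a log2 fold change of −1.61 in CAMA-1 and 0.82 in ZR-75-1. Its drug and DMSO libraries did not overlap in either line. The same was true of 48.1% (CAMA-1) and 45.7% (ZR-75-1) of all genes tested. The STC1 responses differed by 2.40 as ZR-75-1 minus CAMA-1. This difference was not tested, since the DMSO libraries also served the palbociclib contrast by which STC1 was chosen.

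The STC2 response to palbociclib differed between the lines by −1.62 (adjusted p = 4.2e-08, edgeR interaction test), with a rise of 0.95 in CAMA-1 and −0.64 in ZR-75-1. The part of any library property in these differences was not tested, but without mitochondrial genes they were 2.45 and −1.57.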

How the results depend on the processing

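Alternatives were another scaling (RLE), no filter on low counts, DESeq2, a replicate block, a joint fit, leaving out each library and, added after the data were seen, leaving out mitochondrial genes. Apart from single libraries left out, 109 of 109 values held: those of the pair kept their direction and, where tested, their side of the threshold, and counts of all genes called stayed within 1.5 times. Of 120 counts of list genes called, 118 stayed within 1.5 times (hypoxia with abemaciclib in CAMA-1, for example, ran from 7 to 10). The exceptions were the calcium and phosphate list, which with DESeq2 had 3 genes called in place of 5 with palbociclib in CAMA-1 and 2 in place of 4 with abemaciclib in ZR-75-1. The cause was not tested.

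Leaving out 1 library at a time, STC2 with palbociclib in ZR-75-1 ran from −0.76 to −0.50, and passed the threshold except without DMSO replicate 3 (adjusted p = 0.054). The abemaciclib difference of STC2 between lines ran from −0.64 to −0.34, and passed without DMSO replicate 1 or abemaciclib replicate 1 of ZR-75-1. Among differences of STC2 that did not pass, abemaciclib in ZR-75-1 ran from 0.08 to 0.41 and abemaciclib minus palbociclib in CAMA-1 from −0.36 to −0.07. The untreated lines ran from −0.30 to −0.03, and none of these passed. STC2 differences that passed moved as well, and stayed called in each fit. Abemaciclib in CAMA-1 ran from 0.59 to 0.87, palbociclib there from 0.84 to 1.04, and abemaciclib minus palbociclib in ZR-75-1 from 0.72 to 1.01. STC1 with abemaciclib ran from −1.75 to −1.44 in CAMA-1 and from 0.74 to 0.97 in ZR-75-1.

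Replicate numbers were shared across groups, and no pairing by number was seen. Deviations of same-numbered libraries correlated at −0.078 to 0.012 in CAMA-1 and −0.030 to 0.006 in ZR-75-1. For differently numbered libraries the ranges were −0.035 to 0.050 and −0.019 to 0.032. Values this near to each other cannot exclude a pairing. With the replicate as a block, STC1 with abemaciclib in CAMA-1 was −1.61 and STC2 with palbociclib in ZR-75-1 −0.65 (adjusted p = 0.0030), and no call for the pair changed. Depth limits STC1 in palbociclib-treated CAMA-1, at 18 to 25 counts.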

Other observations

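Of 26 genes listed for calcium and phosphate handling, 15 were tested in each line. In CAMA-1, 1 rose and 2 fell with abemaciclib and 2 rose and 3 fell with palbociclib. In ZR-75-1, 1 rose and 3 fell with abemaciclib and 3 rose and 3 fell with palbociclib (20%, 33.3%, 26.7% and 40% called in these comparisons, against 40.3%, 37.1%, 36.2% and 27.9% of all genes). In CAMA-1 the calcium sensor STIM2 fell by 0.81 and 0.74 and the calcium pump ATP2A2 by 0.52 and 0.49, the pump ATP2C2 rose by 0.46 with abemaciclib, and the channel genes ORAI3 and ORAI2 rose by 1.01 and 0.41 with palbociclib. In ZR-75-1 the pump ATP2B1 fell by 0.41 and 0.46 and the phosphate transporter SLC20A1 by 0.42 and 0.39, SLC20A2 rose by 0.54 with abemaciclib, and ATP2A3 and STIM1 rose by 1.12 and 0.67 with palbociclib.

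Of 27 genes listed for the response to low oxygen, 22 were tested in CAMA-1, of which 5 rose and 4 fell with abemaciclib and 6 rose and 3 fell with palbociclib. In ZR-75-1, 19 were tested, with 3 up and 3 down for abemaciclib and 6 up and 1 down for palbociclib. The shares called were 40.9%, 40.9%, 31.6% and 36.8%, against the 40.3%, 37.1%, 36.2% and 27.9% of all genes. The medians were 0.18, 0.22, 0.03 and 0.20 on the log2 scale. The lactate dehydrogenase LDHA fell in CAMA-1 with both drugs (−0.76 and −0.65) and in ZR-75-1 with abemaciclib (−0.67). VEGFA, the vascular growth factor, fell in ZR-75-1 (−1.02 and −1.31), HK2 by 0.77 with abemaciclib and FAM162A by 0.52 with palbociclib in CAMA-1. The oxygen sensor EGLN3 rose by 1.52 and the glucose transporter SLC2A1 by 0.78 with abemaciclib in CAMA-1, and ALDOC and MXI1 rose by 1.15 and 0.78 with palbociclib. In ZR-75-1, BNIP3L and SLC2A1 rose by 0.51 and 0.35 with abemaciclib, and P4HA2 and PFKFB3 by 0.84 and 0.57 with palbociclib.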
